A study of Mus musculus with 9 samples.

Results

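Of the zinc-dependent histone deacetylase (HDAC) genes, 10 were examined in cultured mouse round spermatids (RS), and any others of the family were not. The 10 members, found by gene name among the 55414 genes of the deposited table, were Hdac1, Hdac2, Hdac3 and Hdac8 of class I, Hdac4, Hdac5 and Hdac7 of class IIa, Hdac6 and Hdac10 of class IIb, and Hdac11 of class IV. RS, the haploid cells that follow meiosis, had been sorted by flow cytometry from adult Stra8-Tom mice, in which Stra8-iCre switches on a tdTomato reporter in the male germ line; the labels give the genotype as WT. Culture lasted 24 h in 3 groups that all received 0.15% DMSO: vehicle, oxamate at 24 mM, which blocks lactate dehydrogenases, and the same dose of oxamate plus octyl-L-2HG at 0.3 mM, an ester by which L-2-hydroxyglutarate (L-2HG) enters cells. RNA of 3 libraries per group was sequenced after polyA selection, and the study describes the incubations as triplicates without saying whether their cells came from separate animals, so p-values measure the spread between these libraries. The comparisons show how HDAC transcript levels stood when lactate dehydrogenase was inhibited and when L-2HG was supplied on top of the inhibitor.

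HDACs of these classes use a zinc ion to remove acetyl groups from lysines of histones and other proteins. HDAC1 and HDAC2 act inside the Sin3, NuRD, CoREST and MiDAC complexes, and HDAC3 acts with the corepressors NCoR and SMRT. Class IIa enzymes have weak catalytic activity, bind MEF2 factors, and are moved out of the nucleus when kinases phosphorylate them. Histones become widely acetylated after the RS stage, in elongating spermatids, where transition proteins and then protamines take their place.

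Among the HDAC genes that passed the test, Hdac4 had the largest change. It fell by 0.54 on the log2 scale with both compounds against vehicle and by 0.47 against oxamate alone. With oxamate alone, 0 of the 10 genes passed the edgeR test in either direction, where 3.97% of all genes tested were called higher and 1.22% lower, so little is read from that count. Hdac3 rose by 0.26 on the log2 scale with both compounds against vehicle, a call that depended on single libraries. The remaining 8 genes did not pass the test in any comparison.

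The libraries held between 32339533 and 39888396 counted reads. Oxamate library 4 stood apart from the other oxamate libraries: the chi-square per degree of freedom between pairs of libraries was 13.5 and 16.5 for pairs with library 4, against 1.77 between libraries 5 and 6. Vehicle library 1 also stood apart, though less so, at 8.82 and 8.40 against 4.94 between libraries 2 and 3. Pairs with both compounds gave 1.99 to 5.20. Vehicle libraries carry the numbers 1 to 3, oxamate libraries 4 to 6, and libraries with both compounds 7 to 9. The 10 RS markers summed to 81080 to 83790 normalized counts in the vehicle libraries, above the 74110 to 78220 in oxamate and the 75330 to 76130 with both compounds. The 7 spermatogonium markers summed to 600.6 to 659.6 in vehicle, below the 737.7 to 752.7 in oxamate and the 681.5 to 750.4 with both compounds, and none of the 7 passed the edgeR test between a pair of groups, while Gfra1 passed that of any difference among the 3 groups (adjusted p = 0.0462). In that list, the genes with the largest means, Dazl and Gfra1, went from 381.8 to 464.5 and from 125.6 to 161 between vehicle and oxamate. Uchl1 and Zbtb16 went the other way, from 49.8 to 40.1 and from 12.5 to 10.8. The part of either sum, of RS or spermatogonium markers, in the HDAC results was not tested. Summed spermatocyte markers overlapped between groups, at 25040 to 28290, and of the 8 genes Piwil1 rose with oxamate (log2 fold change 0.26, adjusted p = 0.032, edgeR) and Sycp2 with octyl-L-2HG against oxamate (0.37, adjusted p = 0.00774). Markers of Sertoli, Leydig and myoid cells and of leukocytes summed to at most 162.1 normalized counts per list. Myoid sums were higher in oxamate (97.17 to 108.5) than in vehicle (83.4 to 89.75), while those of Leydig cells (19.73 to 27.62 against 28.44 to 38.21) and leukocytes (112.4 to 123.9 against 128.8 to 162.1) were lower. The part of these sums in the results on the HDAC genes and their partners was not tested. Of the somatic markers, Sox9, Wt1 and Insl3 had at most 4 counts in a library, while the Sertoli list also held Clu and Amhr2 at means of 42.5 and 41.7 normalized counts in vehicle, and the Leydig list Star, Cyp11a1 and Cyp17a1 at 12.2, 12.2 and 9.16. Summed endothelial markers stood between 441.3 and 568.8. In RNA of a cell population, fewer cells of a type and less RNA per cell cannot be told apart.

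Levels of the 10 genes were first compared per exon length, as normalized counts per kb (a count divided by the library's size factor and by the summed length of the gene's exons in kb). In vehicle, Hdac1 stood far above the rest, at 2626 ± 141 normalized counts per kb (SD, n = 3). Hdac3 followed at 338 ± 30.2, Hdac11 at 283 ± 39.7, Hdac2 at 235 ± 10.6 and Hdac5 at 195 ± 19.0 per kb. Of these neighbours in order, Hdac3 and Hdac11 overlapped between their vehicle libraries, as did Hdac11 and Hdac2. Hdac4 stood at 38.9 ± 2.26 per kb. The other 4 genes were near the limit of detection, Hdac8 at 1.70 ± 0.135 per kb and Hdac10, Hdac7 and Hdac6 at 0.543, 0.491 and 0.366 per kb, in an order that the spread between libraries did not separate.

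**Figure D1:**
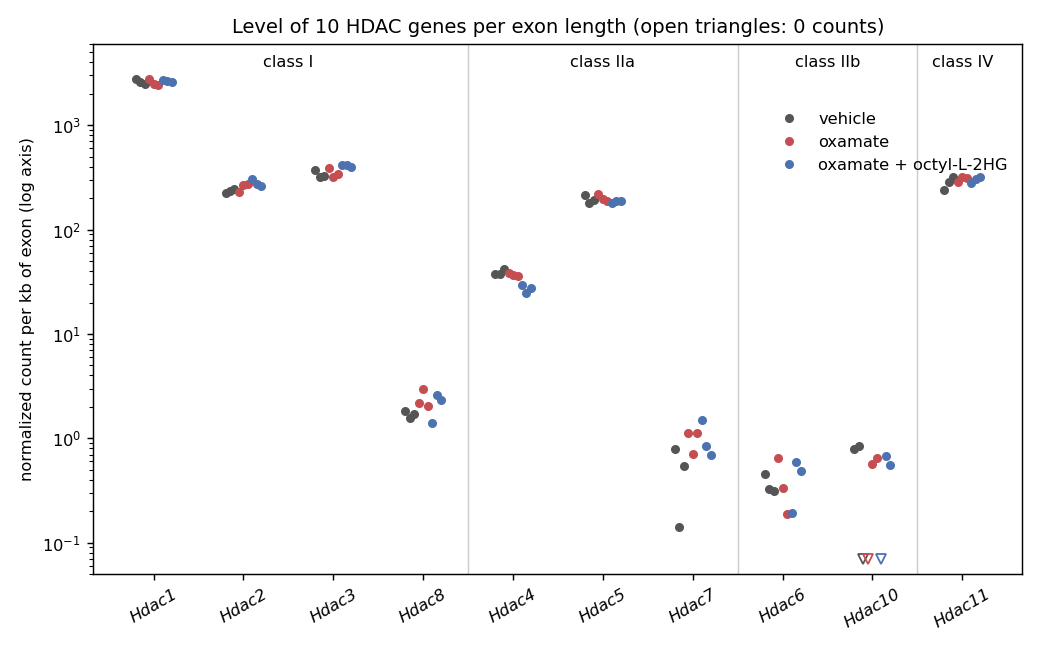
Normalized counts per kb of exon of the 10 HDAC genes on a log axis, 1 point per library, coloured by group, with open triangles for libraries with 0 counts. Hdac1 has a mean of 2626 per kb in vehicle, and Hdac6, Hdac7, Hdac8 and Hdac10 lie below 3 per kb.

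Hdac1 made up 70.6% ± 1.51 of the normalized counts per kb summed over the 10 genes in vehicle, 68.8% ± 1.3 in oxamate and 68.9% ± 0.429 with both compounds (SD, n = 3). The summed level was 3718 ± 131 per kb in vehicle, 3717 ± 200 in oxamate and 3881 ± 61.0 with both compounds. Two-sided exact permutation tests gave p = 1 for oxamate against vehicle, p = 0.4 for both compounds against oxamate and p = 0.2 for both compounds against vehicle, a difference of 163.3 per kb. The smallest p that 3 against 3 libraries allow is 0.1, so these tests could not have passed 0.05 and do not show that the sums were alike. With the length of the longest transcript in place of all exons, Hdac1 made up 74.5% in vehicle and Hdac11 came before Hdac3.

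Differences were tested on the counts with edgeR's quasi-likelihood test across all 25128 genes with at least 10 summed counts, and adjusted p-values are by the Benjamini-Hochberg method with a threshold of 0.05. The 3 comparisons share libraries and are not independent of each other. In oxamate against vehicle, 0 of 10 HDAC genes passed the edgeR test, 0 had an unadjusted p under 0.05 and 0 passed with DESeq2, where 3.97% of all genes tested were called higher and 1.22% lower. With octyl-L-2HG added to oxamate, 1 of 10 was lower than in oxamate alone and 0 were higher by edgeR or DESeq2 (1, Hdac3, at an unadjusted p under 0.05), where 8.06% of all genes were lower and 3.18% higher. Against vehicle, both compounds gave 1 higher and 1 lower HDAC gene (0 higher and 1 lower with total counts as the scaling, and 2 higher, Hdac2 and Hdac3, and 1 lower with DESeq2 or its size factors), where 7.48% of all genes were higher and 10.6% lower. Hdac4 alone passed the test of any difference among the 3 groups, which called 19.8% of all genes. The median log2 fold change of the 10 genes was 0.09, 0.01 and 0.13 in the 3 comparisons, beside -0.01, -0.04 and -0.05 over all genes tested. A rise with oxamate that octyl-L-2HG lowered again was called for 1.09% of all genes and for 0 of 10 HDAC genes.

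Hdac1, a catalytic subunit shared by Sin3, NuRD and CoREST, held 9544, 9022 and 8570 normalized counts in vehicle libraries 1 to 3. The oxamate libraries held 9559, 8490 and 8407, and those with both compounds 9420, 9189 and 9020. The groups overlapped throughout. With both compounds, the log2 fold change against vehicle was 0.00 (95% interval -0.14 to 0.15, adjusted p = 0.978, edgeR), and -0.06 when libraries were scaled by total counts. For oxamate alone it was -0.03 (interval -0.17 to 0.11, adjusted p = 0.882). The processed pseudogene Hdac1-ps, which shares sequence with Hdac1, held between 7 and 25 counts per library, and how the counting split reads between the pair is not stated.

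Hdac2, the paralog of Hdac1 in the same complexes, held 1001, 1056 and 1095 normalized counts in vehicle. It held 1015, 1207 and 1220 in oxamate, and 1377, 1212 and 1168 with both compounds. All 3 libraries with both compounds lay above the 3 vehicle libraries, while the oxamate libraries overlapped both groups. The log2 fold change of both compounds against vehicle was 0.23 ± 0.08 (SE), which missed the threshold (adjusted p = 0.0586, edgeR) and passed it with DESeq2 (adjusted p = 0.0357) and without oxamate library 4 (0.23, adjusted p = 0.0073, edgeR). With total counts as the scaling it was 0.17 (adjusted p = 0.19, edgeR), and without library 7 it was 0.16 (adjusted p = 0.293). Against oxamate it was 0.10 (adjusted p = 0.526, edgeR). The Hdac1 to Hdac2 ratio per kb was 11.2 ± 1.11 in vehicle, 10.1 ± 1.85 in oxamate and 9.59 ± 0.616 with both compounds (SD, n = 3). The last group lay below vehicle in all libraries, at the smallest p the design allows (two-sided exact permutation test, p = 0.1).

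Hdac3, the catalytic subunit of the NCoR and SMRT complexes, held 1509, 1279 and 1319 normalized counts in vehicle. In oxamate it held 1594, 1304 and 1376, and with both compounds 1668, 1690 and 1624. The libraries with both compounds lay close together and above all 6 others, while vehicle and oxamate overlapped. Hdac3 rose by 19.5% with both compounds against vehicle (log2 fold change 0.26 ± 0.08 SE, adjusted p = 0.0351, edgeR). Against oxamate the log2 fold change was 0.19 ± 0.08 (adjusted p = 0.15, edgeR), and ran from 0.29 (adjusted p = 0.00339) without oxamate library 4 to 0.13 (adjusted p = 0.488) without oxamate library 5. With total counts as the scaling it was 0.15 (adjusted p = 0.265), and without a filter on low counts 0.24 (adjusted p = 0.0397). The rise against vehicle was called in 11 of 19 alternative analyses. It was not called without vehicle library 2 (log2 fold change 0.22, adjusted p = 0.149), vehicle library 3 (0.24, 0.109), or libraries 7 (0.26, 0.102), 8 (0.25, 0.121) or 9 (0.27, 0.0812) of both compounds, by edgeR. It was also not called with total counts as the scaling (0.19, adjusted p = 0.0997) or after a correction for transcript length (0.21, adjusted p = 0.0612).

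Hdac8, the class I enzyme that deacetylates cohesin, had 8 to 10 raw counts per vehicle library, 9 to 15 per oxamate library and 6 to 12 per library with both compounds. After normalization the oxamate libraries lay above those of vehicle, at 9.87 to 14.4 against 7.58 to 8.89. The log2 fold change of 0.50 had a 95% interval from -0.23 to 1.22 (adjusted p = 0.517, edgeR), so a change was not detectable at this depth.

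Hdac4 (ENSMUSG00000026313) held 598.8, 591.4 and 656.6 normalized counts in vehicle libraries 1 to 3. It held 605.9, 584.2 and 569.0 in oxamate, and 461.6, 391.9 and 438.1 with both compounds. The libraries with both compounds lay below all 6 others, and vehicle and oxamate overlapped. Hdac4 fell by 31.0% with both compounds against vehicle (log2 fold change -0.54 ± 0.09 SE, adjusted p = 0.000114, edgeR) and fell by 27.9% against oxamate alone (-0.47 ± 0.09, adjusted p = 0.00104). Oxamate against vehicle gave -0.07 ± 0.08 (95% interval -0.24 to 0.11, adjusted p = 0.764, edgeR). Both falls were called in all 19 alternative analyses. Over these the log2 fold change ranged from -0.65 to -0.47 against vehicle and from -0.52 to -0.41 against oxamate.

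Other values moved alongside Hdac4. The summed endothelial markers held 441.3 to 475.5 normalized counts with both compounds, against 519.3 to 568.8 in vehicle and 531.6 to 550.2 in oxamate. Vwf held most of that sum, with a mean of 413.2 in vehicle and 292 with both compounds. This marker, 1 of the 4 in that list, fell in the same comparisons (log2 fold change -0.52 against vehicle, adjusted p = 0.000447, edgeR). Pecam1 and Cdh5 were not called. Kdr, another, rose with both compounds against vehicle (0.44, adjusted p = 0.0232), with 0.46 for oxamate alone (adjusted p = 0.0457). Of the 10 RS markers, 5 fell and 1 rose with both compounds against vehicle, beside 10.6% lower and 7.48% higher of all genes tested. With octyl-L-2HG against oxamate 5 fell, beside 8.06% of all genes. Tssk6, a kinase gene of spermatids, had the pattern of Hdac4, with a log2 fold change of -0.13 with oxamate (adjusted p = 0.557, edgeR), -0.86 against oxamate (adjusted p = 2.03e-05) and -0.998 against vehicle (adjusted p = 1.13e-06). The other 4 that fell, the protamine genes Prm1 and Prm2 and the transition protein genes Tnp1 and Tnp2, fell by 0.56 to 0.77 on the log2 scale against vehicle, and they also fell with oxamate alone, by 0.26 to 0.45, where Hdac4 was not called. Acrv1, an acrosome gene, rose with both compounds against vehicle (0.25, adjusted p = 0.0103, edgeR), and Spaca1, Spata16, Sun5 and Crem were not called. Sycp2, of the spermatocyte list, rose against oxamate, as given above. The part of these genes in the fall of Hdac4 was not tested. Genes with longer summed exons tended to higher fold changes in each comparison (Spearman rho across 10697 genes from 0.17 to 0.35, a description since genes are not replicates). With 15.81 kb, Hdac4 has the longest summed exons of the 10 genes, while its longest transcript is 8.1 kb. Its log2 fold change after a length correction was -0.65 against vehicle and -0.49 against oxamate. In the GRCm38 annotation, exons of Hdac4 share 3536 bases with the lincRNA Gm26720 on the opposite strand, not analysed here, and the strand setting of the counting is not stated.

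**Figure D2:**
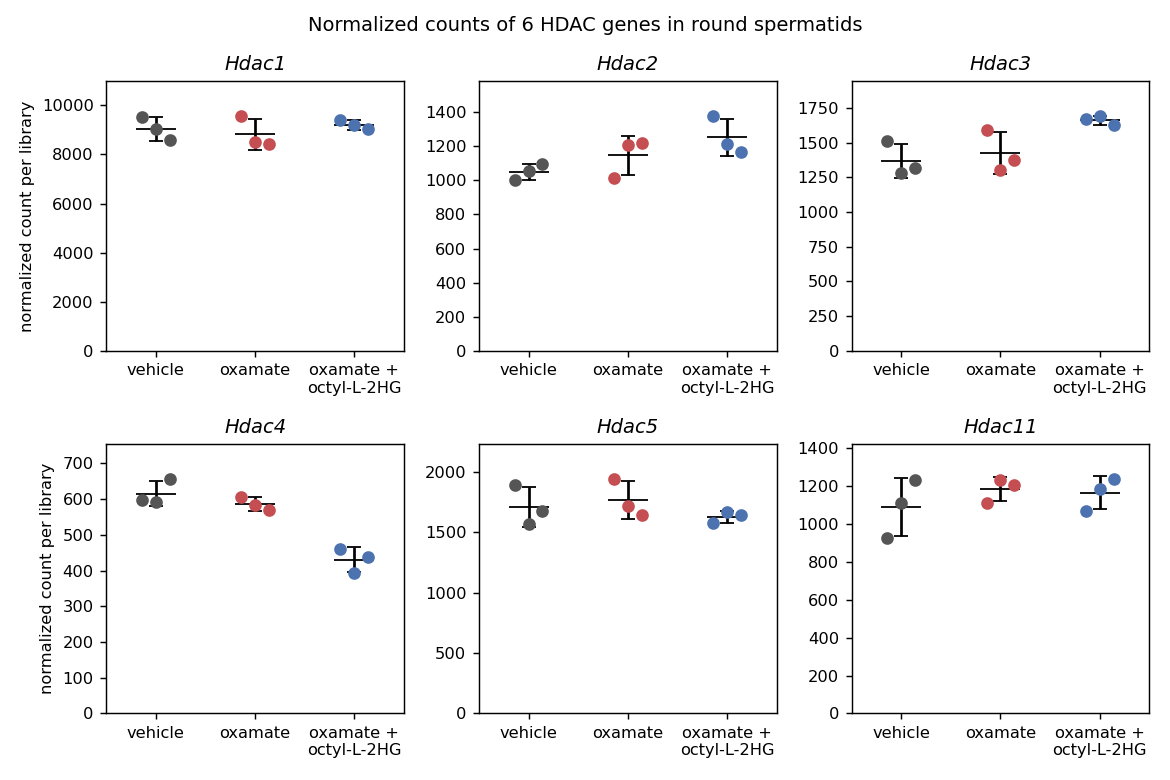
Normalized counts of the 6 HDAC genes with a mean of at least 100, 1 point per library in the order of its number, with a bar for the mean and whiskers for 1 SD (n = 3) on axes that start at 0. The Hdac4 libraries with both compounds sit between 391.9 and 461.6, below the other 6, and those of Hdac3 between 1624 and 1690, above the other 6.

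Hdac5, the class IIa relative of Hdac4, held 1892, 1565 and 1675 normalized counts in vehicle. It held 1940, 1713 and 1638 in oxamate, and 1573, 1663 and 1639 with both compounds. The groups overlapped. For both compounds together, Hdac5 had a log2 fold change of -0.10 ± 0.08 (SE) against vehicle (95% interval -0.27 to 0.07, adjusted p = 0.483, edgeR) and -0.14 ± 0.08 against oxamate (interval -0.32 to 0.03, adjusted p = 0.307). The Hdac5 to Hdac4 ratio per kb was 5.02 ± 0.590 in vehicle, 5.41 ± 0.312 in oxamate and 6.84 ± 0.758 with both compounds (SD, n = 3). In each of the libraries with both compounds it exceeded the other 6, which gave the smallest p of the design (two-sided exact permutation test, p = 0.1 against each group). The permutation tests of ratios and sums numbered 9, and none could pass 0.05 before or after Benjamini-Hochberg adjustment.

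The promoter windows of Hdac4 and Hdac5 are shown because these were the best expressed of the class IIa genes examined and 1 of them changed. They come from RefSeq for GRCm38.p6, 250 bases before to 50 bases after the gene start, 5′ to 3′ along the gene, both on the minus strand: Hdac4 at chr1:92180292-92180591 and Hdac5 at chr11:102230123-102230422. Capitals mark GC boxes (GGGCGG) and CCAAT boxes (CCAAT), read on both strands.
Hdac4: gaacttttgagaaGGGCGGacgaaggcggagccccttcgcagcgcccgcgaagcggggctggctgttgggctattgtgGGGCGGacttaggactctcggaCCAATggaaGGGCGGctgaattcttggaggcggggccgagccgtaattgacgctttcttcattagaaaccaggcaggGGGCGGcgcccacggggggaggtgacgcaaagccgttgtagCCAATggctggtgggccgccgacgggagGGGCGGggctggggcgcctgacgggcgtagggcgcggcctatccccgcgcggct
Hdac5: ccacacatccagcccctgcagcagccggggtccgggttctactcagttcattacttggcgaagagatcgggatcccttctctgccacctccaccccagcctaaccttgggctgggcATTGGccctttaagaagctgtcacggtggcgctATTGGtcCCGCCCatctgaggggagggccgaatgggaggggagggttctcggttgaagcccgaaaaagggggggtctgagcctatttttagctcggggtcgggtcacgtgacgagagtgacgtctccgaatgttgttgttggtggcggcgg
The Hdac4 window held 5 GC boxes and 2 CCAAT boxes, and that of Hdac5 held 1 GC box and 2 CCAAT boxes. Of 32851 promoter windows, 35.7% held at least 1 GC box, 2.71% held at least 5, and 11.7% held at least 2 CCAAT boxes. Windows were found for 7 of the 10 genes. The windows were 68.0% G and C for Hdac4 and 60.7% for Hdac5.

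Hdac7, the third class IIa gene examined, had 1 to 6 raw counts per vehicle library, 5 to 8 in oxamate and 5 to 9 with both compounds. Oxamate against vehicle gave it a log2 fold change of 0.97, with a 95% interval from -0.16 to 2.09 (adjusted p = 0.382, edgeR). The groups overlapped. Of class IIb, Hdac6, the cytoplasmic tubulin deacetylase, had 1 to 4 raw counts per library, and Hdac10, a polyamine deacetylase, 0 to 3. Hdac10 was at 0 in 1 library of each group, which allows up to 3 counts there. The intervals of Hdac10 ran from -2.54 to 1.70 on the log2 scale for oxamate against vehicle, and those of Hdac6 from -1.39 to 1.64, so that at this depth a difference inside these bounds was not detectable.

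Hdac11, the single class IV gene and a remover of fatty acyl groups from lysines, held 926.7, 1111 and 1230 normalized counts in vehicle. It held 1112, 1234 and 1204 in oxamate, and 1069, 1186 and 1238 with both compounds. The groups overlapped. Its log2 fold change was 0.12 ± 0.09 (SE) for oxamate against vehicle (adjusted p = 0.539, edgeR) and 0.08 ± 0.09 for both compounds against vehicle (95% interval -0.11 to 0.27, adjusted p = 0.637). Genes that overlap Hdac11 on the opposite strand, Gm44002 and Gm14573, had at most 4 counts per library.

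**Figure D3:**
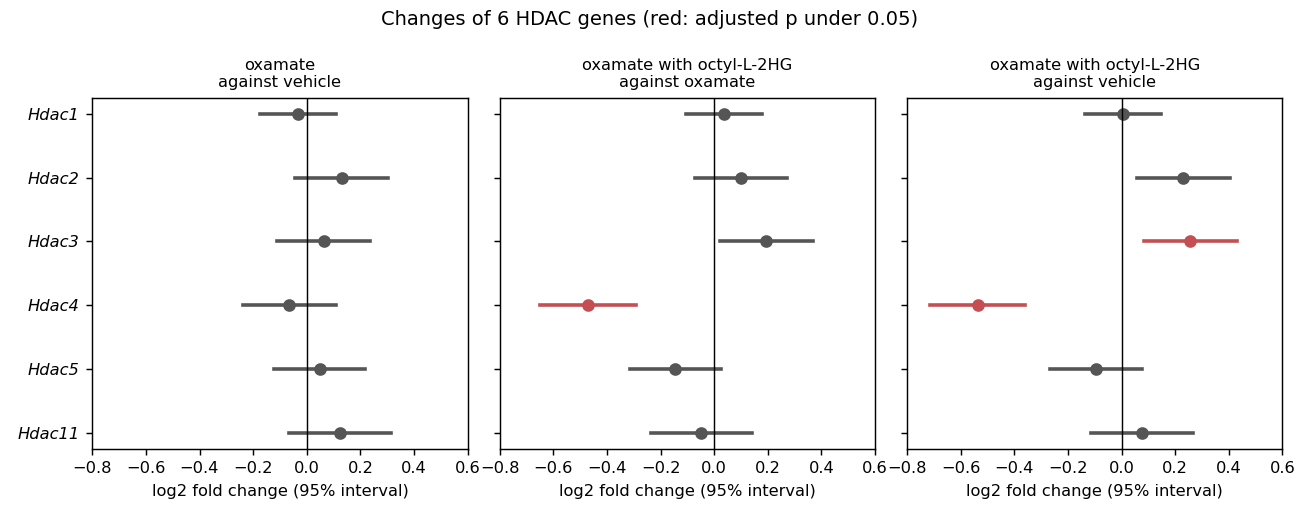
Log2 fold changes of the 6 HDAC genes with a mean of at least 100 normalized counts in the 3 comparisons, with 95% intervals from the edgeR fit, red where the adjusted p is under 0.05. Hdac4 is at -0.47 and -0.54 in the comparisons with octyl-L-2HG, and the oxamate comparison holds no red point.

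Among 10714 genes with a mean of at least 100 normalized counts, those whose log2 CPM followed Hdac4 most closely over the 9 libraries were Rara (Pearson r = 0.974), Srgap1 (0.972) and Gm5565 (0.971). Rara, a retinoic acid receptor, went from 329.7 ± 23.3 normalized counts in vehicle to 290.7 ± 9.12 in oxamate and 178.4 ± 9.52 with both compounds (SD, n = 3). Those closest to Hdac3 were Mcrip1 (0.979), Sgta (0.979) and Ints14 (0.976). Hdac3 and Hdac4 had r = -0.71 with each other. These values describe 9 libraries that share their group, and the genes were picked for the largest r.

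Genes of the complexes in which HDACs work were examined in lists. Of 79 partner genes, all tested and counted 1 time each where lists share them, 15 rose and 1 fell with oxamate against vehicle, 19.0% and 1.27% beside 3.97% and 1.22% of all genes tested. Octyl-L-2HG added to oxamate raised 3 and lowered 6, 3.80% and 7.59% beside 3.18% and 8.06% of all genes. Both compounds against vehicle raised 17 and lowered 2, 21.5% and 2.53% beside 7.48% and 10.6% (edgeR, adjusted p under 0.05). The partner genes were chosen with earlier results known, so nothing particular to them is read from these shares. With total counts as the scaling, the last comparisons gave 0 higher and 7 lower, and 14 higher and 3 lower, and with DESeq2's size factors octyl-L-2HG raised 5 and lowered 6. Against oxamate, 9 were higher and 5 lower without a filter on low counts, and 11 each at an unadjusted p under 0.05, so the balance of directions there depended on the setting. After a correction for transcript length, oxamate gave 11 higher and 1 lower, and both compounds against vehicle 15 higher and 6 lower. The count for oxamate against vehicle ran from 8 without vehicle library 2 and 9 without vehicle library 1 to 25 without oxamate library 4, and was 10 without oxamate library 5 or 6. For octyl-L-2HG against oxamate it was 15 without library 4 and 5 without library 5 or 8. The median log2 fold changes were 0.10, -0.02 and 0.08, beside those of all genes given above. A rise with oxamate that octyl-L-2HG lowered again was called for 4 of the 79 genes, beside 1.09% of all genes: Phf12, Gatad2b, Kdm4a and Mark2. For each of these, 1 of the calls was lost when single libraries were left out, as given with each gene.

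**Figure D4:**
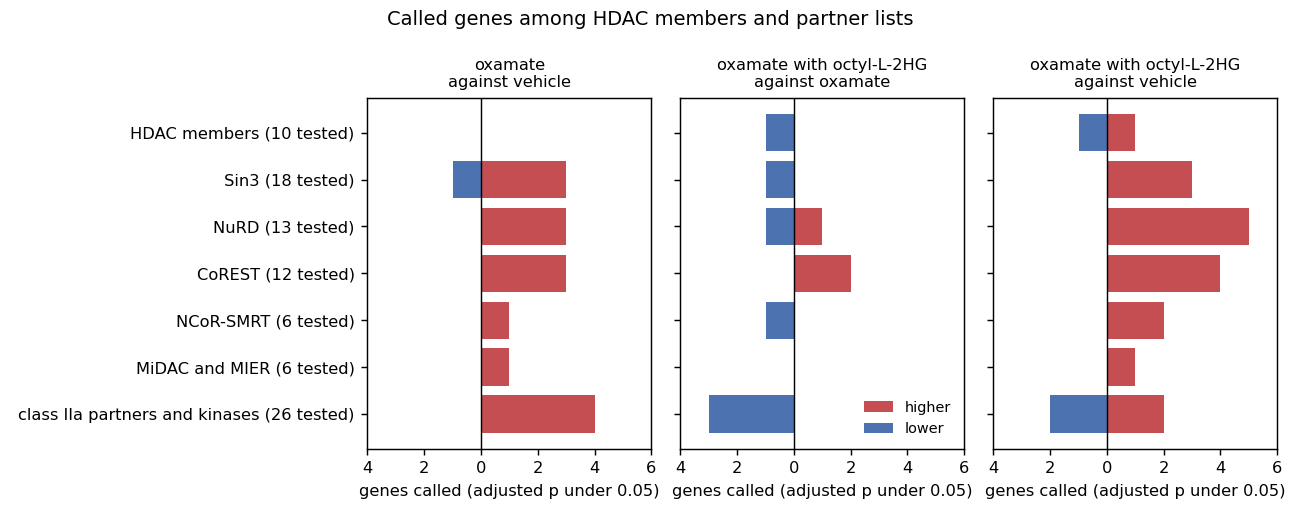
Number of genes called by edgeR (adjusted p under 0.05) among the HDAC members and in each partner list, higher to the right and lower to the left of 0, in the 3 comparisons. In oxamate against vehicle, the class IIa partners reach 4 higher genes of 26 (15.4%) and the 10 HDAC members have no bar, beside 3.97% of all genes called higher.

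In the Sin3 list of 18 genes, 3 rose and 1 fell with oxamate, 16.7% and 5.56% beside 3.97% and 1.22% of all genes. With octyl-L-2HG against oxamate 1 fell (5.56% beside 8.06%), and with both compounds against vehicle 3 rose (16.7% beside 7.48%). Sin3a, the scaffold of the complex, went from 2127 ± 188 normalized counts in vehicle to 2840 ± 129 in oxamate and 2696 ± 123 with both compounds (SD, n = 3), without overlap between vehicle and either treated group. Its log2 fold change was 0.42 with oxamate (adjusted p = 0.000967, edgeR) and 0.32 with both compounds (adjusted p = 0.00321). Phf12, a zinc finger subunit, went from 429.1 to 592.8 with oxamate (log2 fold change 0.47, adjusted p = 0.00118, edgeR). It stood at 494.0 with octyl-L-2HG added (-0.29 against oxamate, adjusted p = 0.0256), a fall not called without libraries 5 (adjusted p = 0.0695), 8 (0.107) or 9 (0.116). Without a filter on low counts, or at a threshold of 0.01, that fall was not called either. Sap130 rose with both compounds against vehicle (0.33, adjusted p = 0.00253, edgeR). Arid4b, a chromatin-binding subunit, fell with oxamate (-0.59, adjusted p = 0.00774, edgeR), a call lost without vehicle library 2 (adjusted p = 0.0669) or 3 (0.0743). A fit of only the compared groups lost that call too.

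The NuRD list of 13 genes had 3 higher and 0 lower genes with oxamate, and 5 higher and 0 lower with both compounds against vehicle (edgeR). These were 23.1% and 38.5% higher, beside 3.97% and 7.48% of all genes. With octyl-L-2HG against oxamate, 1 was higher and 1 lower, 7.69% each beside 3.18% and 8.06%. Gatad2a, which joins the deacetylase part of NuRD to its remodeller, went from 2751 ± 217 normalized counts in vehicle to 3995 ± 222 in oxamate and 3786 ± 176 with both compounds (SD, n = 3). With oxamate the log2 fold change was 0.54 (adjusted p = 7.66e-05, edgeR). Chd4, the remodelling ATPase, went from 8364 ± 368 to 10460 ± 205 and 11670 ± 432 in the same order (0.33 with oxamate, adjusted p = 0.0019, and 0.46 with both compounds, adjusted p = 1.48e-05). Chd3, its paralog, rose with both compounds against vehicle (0.34, adjusted p = 0.00184, edgeR). Gatad2b, the paralog of Gatad2a, fell with octyl-L-2HG against oxamate (-0.41, adjusted p = 0.00102, edgeR). Its rise with oxamate (0.27, adjusted p = 0.0364) was called in 2 of 9 analyses that each left out 1 library, those without oxamate library 4 or library 9, and had an adjusted p of up to 0.135 in the other 7. Total counts as the scaling, a fit of only the compared groups and the length correction each lost that rise too.

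In the CoREST list of 12 genes, 3 rose with oxamate, 2 rose with octyl-L-2HG against oxamate and 4 rose with both compounds against vehicle. These were 25.0%, 16.7% and 33.3%, beside 3.97%, 3.18% and 7.48% of all genes. For both compounds against vehicle, the log2 fold change was 0.43 for Rcor3, a CoREST corepressor (adjusted p = 3.71e-05, edgeR). It was 0.44 for Zmym3 (adjusted p = 0.000881, edgeR) and 0.34 for Kdm1a, the histone demethylase of the complex (adjusted p = 0.00202). These held without any 1 library. Phf21a rose too (0.27, adjusted p = 0.0123, edgeR), but not without vehicle library 1 (adjusted p = 0.0643) or libraries 7 (0.0694) or 8 (0.0591). That call was also lost after the length correction and at a threshold of 0.01. The rises of Kdm1a and Phf21a with octyl-L-2HG against oxamate (0.25 and 0.26, adjusted p = 0.0297 and 0.0267, edgeR) were both lost without library 5 (adjusted p = 0.163 and 0.145), 6 (0.137 and 0.0552), 7 (0.0664 and 0.123) or 8 (0.11 for each), and that of Kdm1a without library 9 (0.125). Both were also lost with total counts as the scaling. With oxamate alone, the rise of Rcor3 (0.25, adjusted p = 0.0212) was lost without library 1, 2, 3, 5 or 6 (adjusted p from 0.0573 to 0.0848), and that of Zmym3 (0.40, adjusted p = 0.00607) without library 2 (0.0632). That rise of Rcor3 was also lost in a fit of only the compared groups and after the length correction.

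Of the 6 NCoR and SMRT genes, 1 rose with oxamate, 1 fell with octyl-L-2HG against oxamate, and 2 rose with both compounds against vehicle. These were 16.7% higher, 16.7% lower and 33.3% higher, beside 3.97%, 8.06% and 7.48% of all genes. Ncor1, the corepressor that activates HDAC3, rose by 0.38 on the log2 scale with both compounds against vehicle (adjusted p = 0.00183, edgeR). Tbl1x, at 31.7 normalized counts in vehicle, rose by 0.68 (adjusted p = 0.0267), a call lost without vehicle library 2 (adjusted p = 0.136) or libraries 7 (0.0548) or 8 (0.179). After the length correction Tbl1x was not called either. Kdm4a, a histone demethylase found with NCoR, went from 527.4 ± 47.9 in vehicle to 668.9 ± 15.1 in oxamate and 509.5 ± 15.8 with both compounds (SD, n = 3). It fell by 0.42 on the log2 scale with octyl-L-2HG against oxamate (adjusted p = 0.00211, edgeR), and its rise with oxamate (0.35, adjusted p = 0.013) was lost without vehicle library 1 (adjusted p = 0.0691) or 2 (0.0693). In the MiDAC and MIER list of 6 genes, Mier3 alone was called and rose with both compounds against vehicle (0.37, adjusted p = 0.000436, edgeR). It was 1 of 6 (16.7%) there and with oxamate, beside 7.48% and 3.97% of all genes, and no gene of the list was called against oxamate by edgeR. Its rise with oxamate (0.26, adjusted p = 0.0241) was lost without library 1, 2, 5, 6 or 8 (adjusted p from 0.0523 to 0.128). That rise was also lost in a fit of only the compared groups and after the length correction.

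The 26 class IIa partners and kinases gave 4 higher genes with oxamate, 3 lower with octyl-L-2HG against oxamate, and 2 higher and 2 lower with both compounds against vehicle. The 15.4% higher with oxamate stood beside 3.97% of all genes, while the 11.5% lower against oxamate and the 7.69% each way against vehicle were near the 8.06% lower, 7.48% higher and 10.6% lower among all genes. Sik2, a kinase that phosphorylates class IIa enzymes, went from 1537 ± 121 normalized counts in vehicle to 2055 ± 60.8 in oxamate and 2258 ± 61.3 with both compounds (SD, n = 3). Its log2 fold change was 0.42 with oxamate (adjusted p = 0.00075, edgeR) and 0.53 with both (adjusted p = 1.53e-05). Mark3 and Camk4, kinases of the same kind, fell with octyl-L-2HG against oxamate by 0.49 (adjusted p = 0.000267, edgeR) and 0.36 (adjusted p = 0.00295). Against vehicle they fell by 0.34 and 0.35, as Hdac4 did by 0.54. Mark2 went from 289.4 ± 17.2 to 380.2 ± 26.4 and 277.7 ± 27.4, with a fall of 0.48 on the log2 scale against oxamate (adjusted p = 0.0024, edgeR). Its rise with oxamate (0.40, adjusted p = 0.015) was lost without vehicle library 1 (adjusted p = 0.0613) or 2 (0.073) or oxamate library 6 (0.0728).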

How the data were processed

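Libraries (9, or 3 per group) were made from RNA of FACS-sorted RS. The authors trimmed reads with cutadapt 2.10, aligned them with TopHat2 2.1.1 to GRCm39 and deposited raw counts per gene from HTSeq 2.01. The authors also deposited a normalized signal per gene, the count divided by a DESeq2 1.36.0 size factor, between 0.8675 and 1.1255. A stranded kit was used, and the strand setting of the counting is not given in the sources used here. Labels and methods name different sequencing instruments.

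Genes with at least 10 summed counts (25128) entered the test of edgeR 4.0.16 (R 4.3.3, TMM, robust quasi-likelihood, all 9 libraries in 1 fit, Benjamini-Hochberg over all genes tested, threshold 0.05). On simulated data of 24596 genes for oxamate against vehicle, 100 of 100 genes raised 2-fold and 70 of 100 raised 1.3-fold were called, with 9 unchanged genes called. The raised genes were drawn from those with an expected count of at least 100, so detection at lower counts was not simulated. Noise was drawn independently for each gene, without shifts of whole libraries. Exon lengths came from another annotation (GRCm38), matched by identifier for 99.6% of the genes tested. Alternatives were DESeq2 1.42.0, other scalings, filters and thresholds, fits of the compared groups, a length correction, and each library left out. Those on partner genes and on longest transcripts were added after seeing the data. Figures were drawn with matplotlib.

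The members and lists were chosen with earlier results of these data known. Named were the members, up to 4 called genes per partner list with the smallest p for any difference, and the 3 genes most like each of the 2 HDAC genes with the smallest such p. Endothelial and RS marker genes were named for values that moved alongside Hdac4. Genes overlapping a member were also named. Intervals (95%) are from the edgeR fit and cover the spread between libraries. No column of values went unused.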

Additional observations from a re-analysis of the deposited data

How the results depend on the processing

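The falls of Hdac4 were called under all 19 alternatives, and the rise of Hdac3 under 11. No paired analysis was run, because the groups share no replicate numbers. The number of HDAC genes called for any difference was 2 with DESeq2, its size factors or filterByExpr, and 3 without a filter or at an unadjusted p under 0.05. Against oxamate, 2 were called without a filter or at an unadjusted p under 0.05, and 1 was called against vehicle with total counts, a threshold of 0.01 or a length correction, and 3 with DESeq2, its size factors, no filter, filterByExpr, an unadjusted p under 0.05 or only the compared groups. Leaving out each library gave 0 to 0 for oxamate against vehicle, 1 to 2 for both compounds against oxamate, 1 to 3 against vehicle and 1 to 3 for any difference. The number of partner genes called with oxamate against vehicle was 8 at a threshold of 0.01, 26 at an unadjusted p under 0.05 and 10 with only the compared groups. For both compounds against oxamate it was 14 (9 higher, 5 lower) without a filter, 5 (all lower) at a threshold of 0.01 and 22 (11 each way) at an unadjusted p under 0.05, beside 3 higher and 6 lower as reported, and against vehicle it was 33 at an unadjusted p under 0.05. Leaving out each library gave 8 to 25, 5 to 15 and 14 to 28 partner genes in the 3 comparisons.

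Signs reversed for HDAC genes in comparisons where they were not called, and the cause was not tested. For both compounds against oxamate, Hdac7 had a log2 fold change of 0.0234 with DESeq2, 0.0142 with its size factors, 0.0333 without a filter and 0.0117 with only the compared groups, and Hdac1 had -0.0078 with total counts. Hdac1 against vehicle had -0.0596 with total counts, -0.0244 at a mean of at least 100 and -0.0219 after the length correction, and Hdac5 had -0.0262 with oxamate alone after that correction. With each library left out, reversing log2 fold changes ran for Hdac1 from -0.0993 to 0.0087, Hdac3 from -0.0325 to 0.1388, Hdac5 from -0.0304 to 0.1287, Hdac6 from -0.4463 to 0.4149 and Hdac10 from -0.984 to 0.1512 for oxamate against vehicle. The ranges were Hdac1 from -0.0019 to 0.1037, Hdac8 from -0.365 to 0.0068, Hdac7 from -0.3811 to 0.2206, Hdac6 from -0.2336 to 0.6277, Hdac10 from -0.5172 to 0.5682 and Hdac11 from -0.0998 to 0.0135 for both compounds against oxamate, and Hdac1 from -0.0217 to 0.0451, Hdac6 from -0.082 to 0.4957, Hdac10 from -0.9103 to 0.1468 and Hdac11 from -0.0266 to 0.1842 for both compounds against vehicle. Hdac6, Hdac7, Hdac8 and Hdac10, with at most 15 counts per library, were limited by depth.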
